A study of Homo sapiens with 36 samples.

Results

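Hydrogen peroxide was the stress examined here, in human HEK293T cells that lacked their own TXNL1 and carried a wild-type (WT) copy in its place. The members were chosen by their labels: 3 WT libraries treated with hydrogen peroxide (H2O2) and 3 untreated WT libraries, 6 of the 36 mRNA sequencing libraries in the series. TXNL1 is a thioredoxin-like protein that binds the proteasome. HEK293T is an embryonic kidney line that carries the SV40 large T antigen, a viral protein that binds p53. Every line of the series had the genotype TXNL1 KO, made as an isogenic single-cell clone, and was complemented with a lentiviral construct under a CMV promoter. The WT line received TXNL1-WT. The 3 other lines received the empty vector, TXNL1-DR-RD (a double mutant at the surface that binds the proteasome) or TXNL1-SxxS (serines in place of the active-site cysteines). The untreated libraries are labelled DMSO. Treated cells received 600 µM H2O2 for 6 h, a dose and time that the labels do not give and the methods do. The replicates were treated in triplicate, and the p-values below measure only the spread between such libraries, which may be technical. The arsenite libraries of each line entered the shared scaling and estimate of the spread, and WT arsenite replicate 1 is also compared below.

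Hydrogen peroxide oxidizes cysteine thiols and damages DNA. Cells meet it with enzymes that reduce peroxide (peroxiredoxins, glutathione peroxidases and catalase), with the transcription factor NRF2, which induces thiol and heme metabolism genes, and with p53, which induces genes of growth arrest and cell death after DNA damage. Checkpoint signals after DNA damage can stop the cell cycle and can also lower the transcripts of mitosis. The integrated stress response raises translation of the transcription factor ATF4, which drives amino acid and glutathione-related genes.

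The WT libraries held between 42072410 and 107763112 counts, in a series that ranged from 42072410 to 174119002. TXNL1 (ENSG00000091164, chromosome 18, 56597209 to 56651600, minus strand, overlapping WDR7) was present at 53.1, 52.1 and 58.0 CPM (counts scaled to library size) in the untreated WT libraries and 54.7, 53.9 and 57.7 CPM in the treated ones. The ranges overlap, and the log2 fold change was 0.03 (SE 0.06, adjusted p = 0.793 by edgeR's quasi-likelihood test). The untreated vector line still gave 30.6 CPM ± 1.77 (SD, n = 3). A transcript of the edited gene and one of the construct are counted together in this gene. Markers of HEK293T cells were mixed: VIM was at 455 to 670 CPM, PAX2 at 0.26 to 0.70 CPM and NEFM, a neurofilament gene, at 0.05 to 0.19 CPM. Of the leukocyte markers, PTPRC had 0 to 2 counts and CD3E 0 to 1 count in the WT libraries. Summed and scaled to library totals, the 5 fibroblast markers gave 28.5 to 40.0 CPM in untreated and 20.7 to 31.9 CPM in treated WT libraries. The 5 hepatocyte markers gave 2 to 31 counts in a library, with ALB at 0 to 10, and the 5 keratinocyte markers 0 to 3 counts.

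One treated library, WT H2O2 replicate 2, lay far from the other two. Of the tested genes with a mean of at least 100 counts in replicates 1 and 3, 11.1% were over 1 log2 unit away from the mean of these replicates. Between replicates 1 and 3 themselves the share was 0.114%. Its departures followed base composition and transcript length. In the lowest bin of GC content (median 36.7%) its median log2 deviation from the untreated WT mean was -0.51, and in the highest (63.7%) it was 0.61, where replicates 1 and 3 stood at 0.16 and 0.15. By length, the median was 0.38 in the bin of shortest transcripts (median 612 bases), highest in the next bin at 0.53 (1409 bases), and lower in each bin after that, to -0.71 in the longest (9536 bases). Across 14374 genes its deviations correlated at r = 0.93 with those of WT arsenite replicate 1, and genes are not independent replicates. That arsenite library also lay far from its group. The SD of log2 levels around the group median was 0.54 there, 0.62 in WT H2O2 replicate 2 and 0.07 to 0.18 in the 34 other libraries. Each result is therefore given with all libraries and without WT H2O2 replicate 2. WT arsenite replicate 1 stayed in both of these fits. The part of GC content, length or WT H2O2 replicate 2 in a gene's value was not tested unless a value is given.

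**Figure D1:**
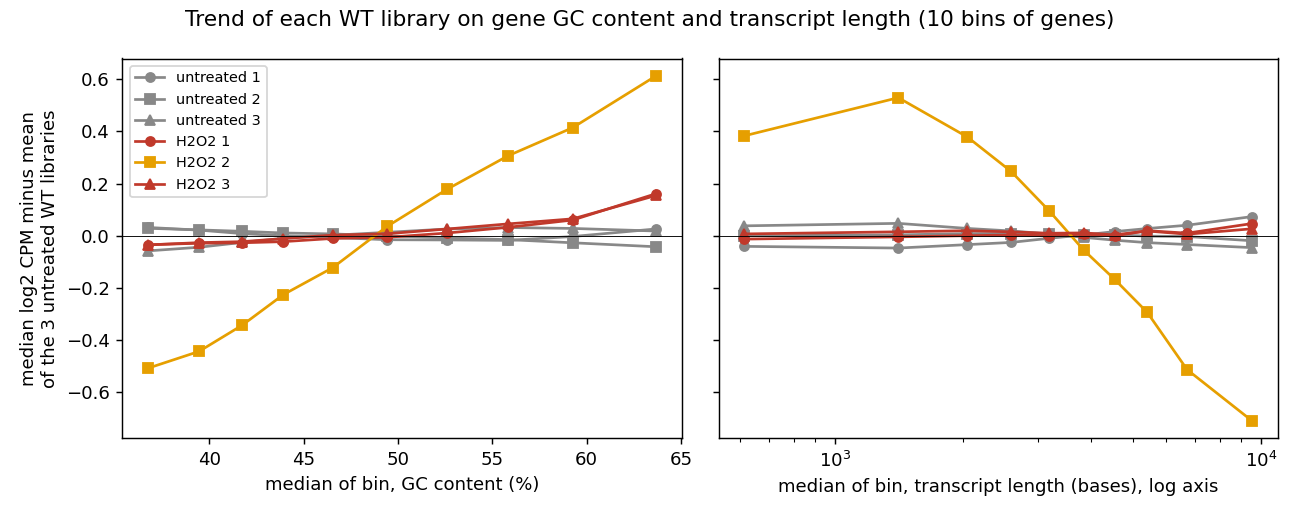
Median log2 deviation from the untreated WT mean (vertical axis) in 10 bins of genes ordered by GC content (left) or transcript length (right), with a line for each WT library. H2O2 replicate 2 runs from -0.51 to 0.61 across GC bins and from 0.38 and 0.53 in the first length bins to -0.71 in the last, while the other libraries stay nearer to 0.

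A gene was called when its adjusted p was under 0.05. With all libraries, 1305 of 22486 tested genes were higher in treated WT cells (5.8%) and 508 were lower (2.26%). Without replicate 2, 467 were higher (2.08%) and 215 were lower (0.956%). The same genes passed in both fits for 411 rises (1.83%) and 159 falls (0.707%), and no gene was called in opposite directions. A change of at least 2-fold in either direction was seen in 179 of the genes called with all libraries and in 77 of those called without replicate 2. The median log2 fold change of all tested genes was 0.0095. With an offset for GC content in each library, 603 were higher and 520 lower. With WT H2O2 replicate 2 and WT arsenite replicate 1 both left out, 1175 were higher and 845 lower. When only the 6 WT libraries were fitted, 1 gene passed with replicate 2 and 1319 passed without it (879 higher, 440 lower). Without untreated replicate 1, 2 or 3 the response called 1087, 789 or 1070 genes, and without H2O2 replicate 1 or 3, which leaves replicate 2 with 1 other library, 3819 or 3649. Replicate 2 did not choose the genes called from replicates 1 and 3, but the 3 untreated libraries did and are also the reference here. Replicate 2 lay above all 3 untreated libraries for 405 of the 467 rises (86.7%, against 41.4% of all tested genes). It lay below them for 158 of the 215 falls (73.5%, against 39.9%). Replicate 2 also read high at genes of high GC content and low at genes of low GC content, and the part of that trend in these shares was not tested. Called rises had a median GC content of 60.4% (59.6% without replicate 2) and called falls 42.4% (45.3%), against 48.3% for all tested genes.

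**Figure D2:**
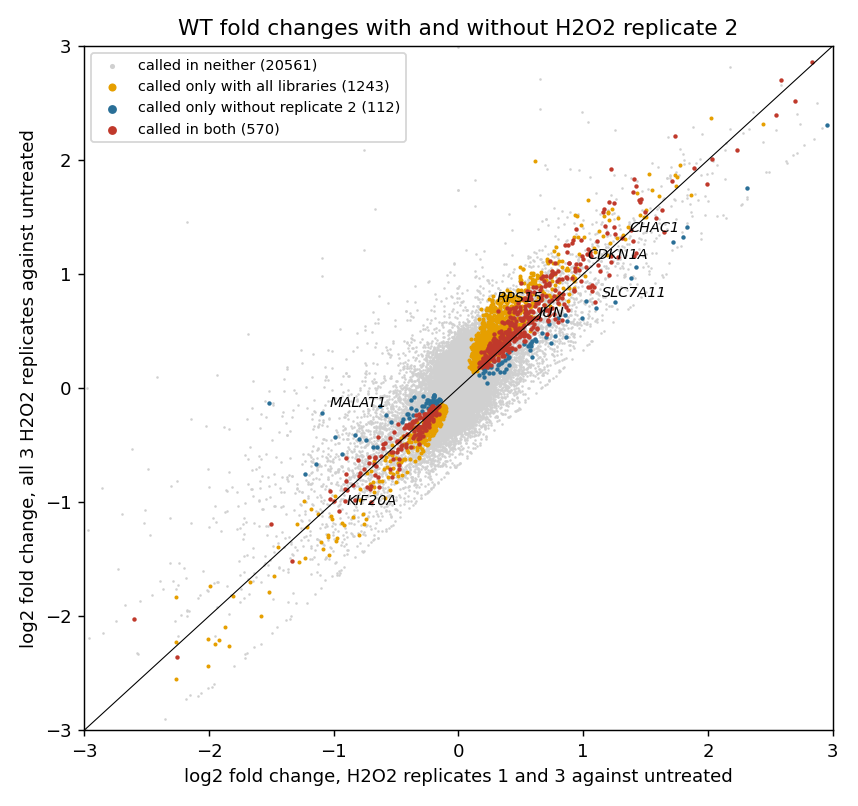
Log2 fold change of H2O2-treated against untreated WT cells for each tested gene, without H2O2 replicate 2 (horizontal axis) and with all libraries (vertical axis). Both axes are linear and limited to 3 log2 units, beyond which 50 genes lie. Coloured points are the 411 genes higher and 159 lower in both fits, and those called in one fit alone.

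The transcripts of G2 and mitosis fell. Of 44 genes of this list, 30 were lower with all libraries, 26 without replicate 2 and 24 in both, as were 2.26%, 0.956% and 0.707% of all tested genes, and the treated and untreated WT libraries did not overlap for 38, where 9.36% of all tested genes had 3 treated libraries below 3 untreated ones. The median log2 fold change of the list was -0.46 (-0.38 without replicate 2), against 0.0095 for all tested genes. In single libraries, the median of the list stood at -0.37, -0.67 and -0.39 relative to the untreated mean in replicates 1, 2 and 3. The same list had medians of -0.32 in vector, -0.38 in DR-RD and -0.33 in SxxS cells. The promoters of the 3 list genes among the 12 largest falls of all genes called in both fits are shown first, because genes of late cell cycle carry recognizable elements there. Capitals mark the cell cycle homology region, searched as TTTGAA or TTTAAA, which DREAM and B-MYB complexes bind, and the CCAAT box, bound by NF-Y, on either strand. The sequences are RefSeq's (GRCh38.p14), from 250 bases before to 50 after the gene start, and read in the direction of the gene.
KIF20A, chr5:138178862-138179161, plus strand: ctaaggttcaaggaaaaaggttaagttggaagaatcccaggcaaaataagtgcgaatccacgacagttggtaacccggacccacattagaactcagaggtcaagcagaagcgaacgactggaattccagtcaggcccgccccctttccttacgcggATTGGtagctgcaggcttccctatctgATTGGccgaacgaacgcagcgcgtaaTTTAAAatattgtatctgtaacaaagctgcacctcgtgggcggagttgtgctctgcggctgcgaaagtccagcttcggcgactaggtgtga
HMMR, chr5:163460382-163460681, plus strand: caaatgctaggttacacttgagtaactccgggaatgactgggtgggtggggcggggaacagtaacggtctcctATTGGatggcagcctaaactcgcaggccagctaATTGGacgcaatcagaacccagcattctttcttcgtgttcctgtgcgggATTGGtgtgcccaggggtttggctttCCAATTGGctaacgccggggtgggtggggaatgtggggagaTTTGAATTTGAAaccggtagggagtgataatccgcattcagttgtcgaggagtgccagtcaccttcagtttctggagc
CENPE, chr4:103198294-103198593, minus strand: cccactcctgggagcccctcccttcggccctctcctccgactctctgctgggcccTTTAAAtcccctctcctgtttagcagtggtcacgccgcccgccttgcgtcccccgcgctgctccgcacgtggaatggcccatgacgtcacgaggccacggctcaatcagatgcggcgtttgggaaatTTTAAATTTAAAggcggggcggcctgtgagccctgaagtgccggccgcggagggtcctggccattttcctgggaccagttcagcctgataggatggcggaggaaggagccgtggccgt
KIF20A had one TTTAAA at position -41 and CCAAT on the reverse strand at -94 and -67, counted from the gene start. HMMR held adjoining TTTGAA matches at -28 and -22 with 5 CCAAT boxes, and CENPE had TTTAAA at -195, -68 and -62 with no CCAAT match in this window. Of the 38 list genes with a promoter in the table, 29 (76.3%) held the homology region, as did 6625 of 27305 promoters of that length in all (24.3%). CCAAT was in 30 of the 38 (78.9%) and in 9747 of all promoters (35.7%). Among the 22 promoters of genes lower in both fits, 18 (81.8%) held the homology region and 18 (81.8%) held CCAAT. A match describes letters in the window and not a bound site.

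KIF20A, a kinesin needed for cytokinesis (chromosome 5, 138178719 to 138187723, plus strand, overlapping BRD8 and CDC23), fell the furthest of the list. It measured 121, 116 and 119 CPM in the untreated libraries and 60.2, 47.0 and 61.9 CPM in the treated ones, for a log2 fold change of -1.07 (SE 0.10, adjusted p = 2.33e-08; -0.96 without replicate 2, adjusted p = 9.92e-08). All 3 treated libraries lay below the untreated ones, replicate 2 the lowest. HMMR, a hyaluronan receptor of the spindle, went from 89.9, 98.9 and 87.6 to 47.5, 40.6 and 50.7 CPM (-0.99, SE 0.08, adjusted p = 1.35e-09; -0.91 without replicate 2). CENPE, the kinetochore kinesin that aligns chromosomes, went from 89.3, 83.1 and 81.6 to 47.2, 45.3 and 43.8 CPM (-0.90, SE 0.08, adjusted p = 3.59e-08; -0.90 without replicate 2). In both genes, as in KIF20A, no treated library reached an untreated one. The regulators of mitotic entry moved less. CCNB1, which encodes cyclin B1, measured 340.1, 359.9 and 353 CPM before and 216, 251 and 226 CPM after (-0.60, SE 0.05, adjusted p = 2.3e-09; -0.67 without replicate 2). PLK1, the mitotic polo-like kinase, went from 249, 252 and 259 to 163, 176 and 165 CPM (-0.59, adjusted p = 5.74e-09), and the spindle kinase AURKA from 134, 141 and 139 to 88.7, 82.8 and 85.8 CPM (-0.69, adjusted p = 1.92e-10). The treated libraries of these kinases lay close to one another. CDC20, the activator of the anaphase-promoting complex, was the exception to that closeness. It was at 268, 265 and 267 CPM untreated and 189, 263 and 192 CPM treated, with replicate 2 next to the untreated libraries. Its log2 fold change was -0.31 with all libraries (adjusted p = 0.0245) and -0.49 without replicate 2 (adjusted p = 8.51e-05). BUB1 (spindle checkpoint kinase, -0.71), DLGAP5 (spindle assembly, -0.76), TPX2 (AURKA activator, -0.56) and TOP2A (chromosome decatenation, -0.44) also fell in both fits. A further 6 list members called with all libraries were not called without replicate 2: KIF14 (-0.90 and -0.55), ASPM (-0.74 and -0.41), CENPF (-0.62 and -0.39), TTK (-0.41 and -0.27), KIF18A (-0.37 and -0.18) and PIF1 (-0.75 and -0.74).

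**Figure D3:**
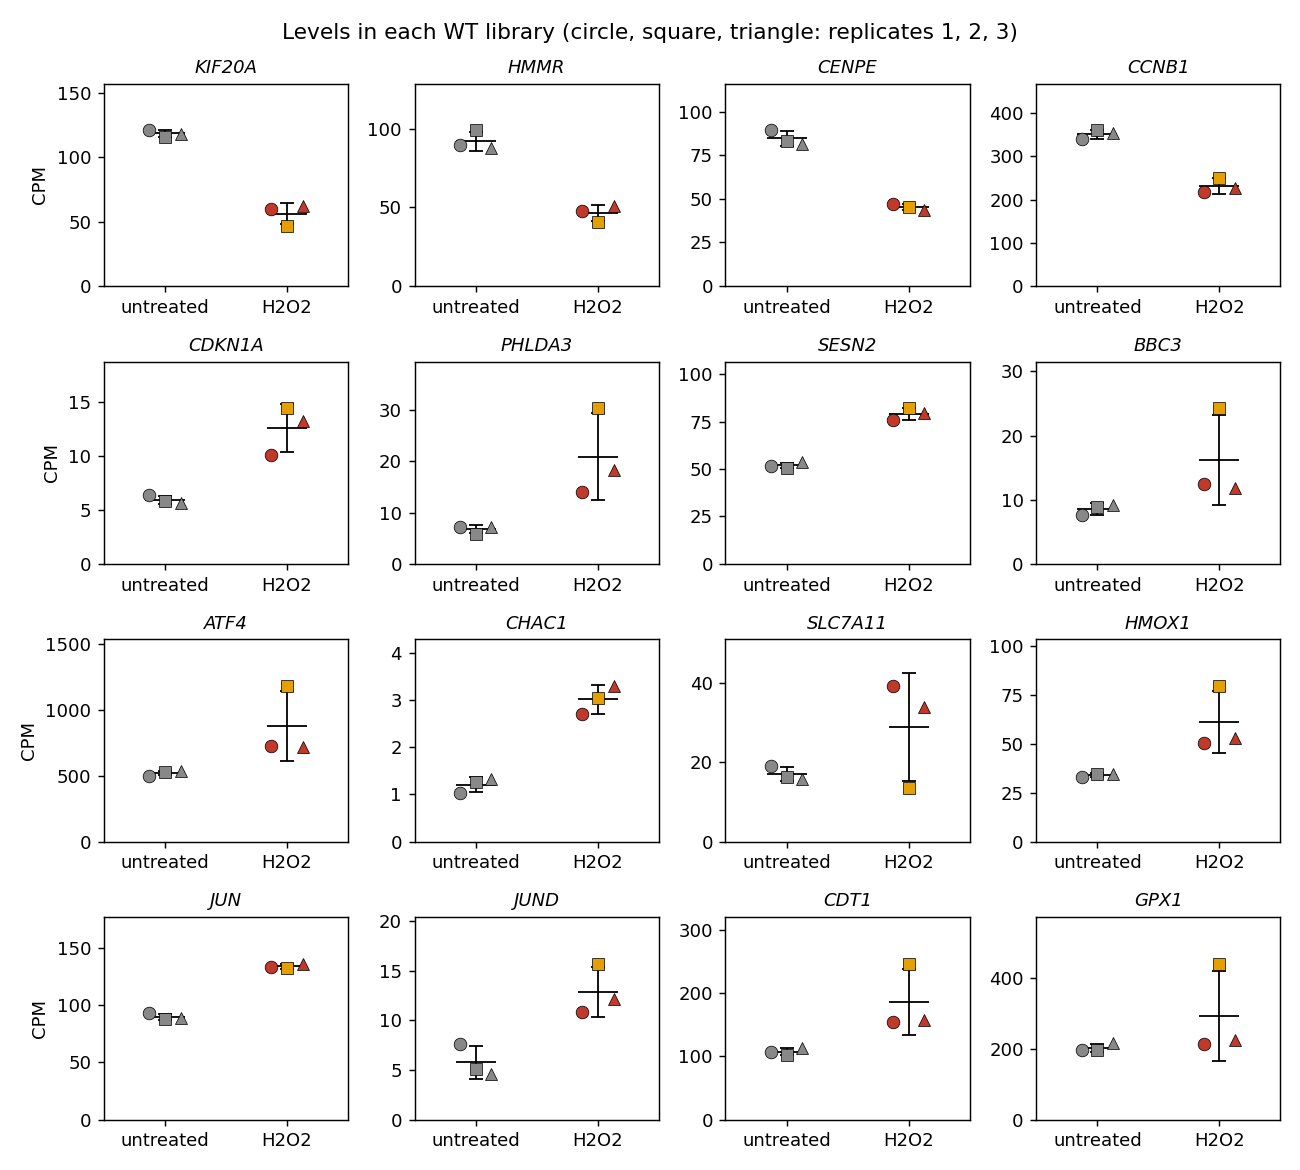
Level in CPM (linear axes from 0) of 16 genes in the 3 untreated and 3 H2O2-treated WT libraries, with group mean and SD as bars, markers for replicates 1, 2 and 3 and H2O2 replicate 2 in orange. The treated libraries of KIF20A lie between 47.0 and 61.9 CPM, all below the untreated ones, whereas GPX1 is far above the untreated range in replicate 2 alone.

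Transcripts of G1/S and DNA replication moved the other way, by less. Of 39 genes, 10 rose with all libraries, 7 without replicate 2 and 6 in both, where 5.8%, 2.08% and 1.83% of all tested genes did. The list median was 0.15 (0.12 without replicate 2). Groups did not overlap for 17 genes that were higher and 2 that were lower. Of all tested genes, 11.7% had 3 treated libraries above 3 untreated ones and 9.36% had them below. CDT1, which licenses replication origins and is degraded once S phase starts, measured 107, 102 and 114 CPM untreated and 154, 246 and 158 CPM treated (0.79, SE 0.12, adjusted p = 0.000189; 0.54 without replicate 2, adjusted p = 0.00148). Replicate 2 stood well above its replicates there. The other 5 genes called in both fits were the transcription factor E2F2 (0.49 and 0.52), the chromatin assembly subunits CHAF1A (0.41 and 0.29) and CHAF1B (0.28 and 0.27), the uracil glycosylase UNG (0.23 and 0.19) and the GINS helicase subunit GINS3 (0.22 and 0.23). E2F1 (0.48, and 0.24 without replicate 2) and PCNA, the replication clamp (0.36 and 0.23), were called only with all libraries. The list medians in vector, DR-RD and SxxS cells were 0.15, 0.12 and 0.14.

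**Figure D4:**
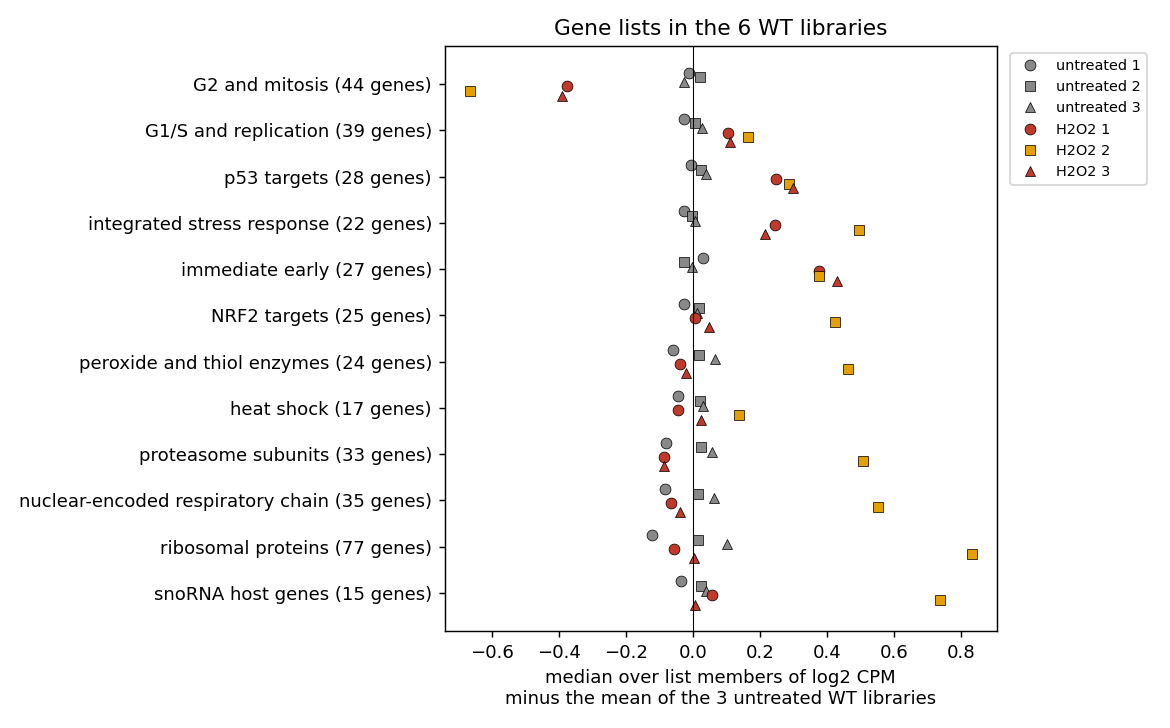
Median log2 deviation from the untreated WT mean over the tested genes of each list, for each of the 6 WT libraries. The G2 and mitosis list is below 0 in all 3 treated libraries, and the p53, integrated stress response and immediate early lists are above 0 in all 3, while the ribosomal, proteasome and peroxide enzyme lists are raised in replicate 2 only.

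Targets of p53 rose as a group of few genes, in a line whose T antigen binds p53. Of 28 targets, 9 were higher and 1 lower with all libraries, where 5.8% and 2.26% of all tested genes were. In both fits 8 were higher, as were 1.83% of all tested genes. The list median was 0.25 (0.31 without replicate 2), and 0.30, 0.19 and 0.21 in vector, DR-RD and SxxS cells. PHLDA3, an inhibitor of AKT signalling (chromosome 1, 201464278 to 201469237, minus strand), rose the most among the 8. It measured 7.09, 5.91 and 7.27 CPM untreated and 13.9, 30.3 and 18.3 CPM treated (1.62, SE 0.19, adjusted p = 4.41e-06; 1.25 without replicate 2, adjusted p = 1.13e-05). CDKN1A, the p21 inhibitor of cyclin-dependent kinases (chromosome 6, 36676460 to 36687337, plus strand, overlapping the antisense RNA gene DINOL), went from 6.39, 5.84 and 5.66 to 10.2, 14.5 and 13.3 CPM (1.08, SE 0.13, adjusted p = 4.43e-06; 0.98 without replicate 2). The lowest treated library exceeded the highest untreated one in both genes. SESN2, a stress-induced inhibitor of mTORC1, was the tightest of the group at 51.6, 50.6 and 53.5 CPM before and 75.7, 82.1 and 79.4 CPM after (0.61, SE 0.05, adjusted p = 5.74e-09). BBC3, which encodes the cell death protein PUMA, measured 7.56, 8.88 and 9.19 CPM untreated and 12.4, 24.3 and 11.8 CPM treated, so that much of its change came from replicate 2 (0.92, adjusted p = 0.00131; 0.50 without it, adjusted p = 0.0199). The kinase PLK3 (0.68), the antiproliferative factor BTG2 (0.44), the nuclease AEN (0.37) and PMAIP1, which encodes the cell death protein NOXA (0.25), rose less, also in both fits. MDM2, the p53 ubiquitin ligase, did not pass (-0.13, adjusted p = 0.582; 0.07 without replicate 2, adjusted p = 0.899), and CCNG1 was called lower only with all libraries (-0.23; -0.12 without replicate 2).

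Genes of the integrated stress response were higher. Of 22 tested genes, 12 rose with all libraries, 9 without replicate 2 and 7 in both, where 5.8%, 2.08% and 1.83% of all tested genes did. The median was 0.35 (0.23 without replicate 2), and 0.19, 0.19 and 0.22 in vector, DR-RD and SxxS cells. CHAC1, which degrades glutathione, rose the most in both fits, and its promoter is shown for that reason. It holds a match to the composite element that ATF4 and C/EBP factors bind. Capitals mark that element, searched on both strands as TGATGNAAN and found on the reverse strand at -210, and CCAAT boxes.
CHAC1, chr15:40953221-40953520, plus strand: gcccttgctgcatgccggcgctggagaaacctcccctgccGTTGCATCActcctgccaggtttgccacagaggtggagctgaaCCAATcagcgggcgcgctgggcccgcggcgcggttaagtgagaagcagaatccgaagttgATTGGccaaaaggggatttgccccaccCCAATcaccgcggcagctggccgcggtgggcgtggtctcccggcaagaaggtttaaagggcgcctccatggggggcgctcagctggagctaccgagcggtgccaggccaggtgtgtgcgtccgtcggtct
The element was in 4 of the 19 list promoters in the table (21.1%) and in 1002 of all 27305 promoters (3.67%). Of the 6 promoters of genes that rose in both fits, 3 held it. CHAC1 measured 1.03, 1.26 and 1.33 CPM untreated and 2.69, 3.04 and 3.29 CPM treated (1.32, SE 0.17, adjusted p = 1.84e-05; 1.31 without replicate 2). Every treated library was above every untreated one, at a low level. ATF4 itself went from 502, 527 and 537 to 728, 1182 and 721 CPM (0.75, SE 0.13, adjusted p = 0.000389; 0.47 without replicate 2, adjusted p = 0.0029), with replicate 2 far above the others. SLC7A11, the cystine importer that feeds glutathione synthesis, went against that pattern. It measured 19.1, 16.4 and 15.9 CPM untreated and 39.2, 13.5 and 34.0 CPM treated, far above the untreated range in replicates 1 and 3 and below the untreated range in replicate 2 (0.75, adjusted p = 0.0477; 1.09 without replicate 2, adjusted p = 0.000472). Its GC content is 35.4%, in the range where that library read low. CEBPB (1.09 and 0.89), ASNS, which makes asparagine (0.35 and 0.29), ATF3 (0.32 and 0.25) and SESN2, already given among the p53 targets, were the others called in both fits. MTHFD2 (0.15 and 0.21) and PSAT1 (0.19 and 0.26), of folate and serine synthesis, were called only without replicate 2.

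Immediate early genes, which signalling induces without new protein synthesis, were higher in treated WT cells. Of 27 genes, 12 rose with all libraries (5.8% of all tested genes did) and 8 in both fits (1.83% did), with a median of 0.40 (0.39 without replicate 2), where vector, DR-RD and SxxS cells had medians of 0.18, 0.28 and -0.01. JUN, a subunit of AP-1 (chromosome 1, 58776845 to 58784048, minus strand), measured 92.9, 88.0 and 88.3 CPM untreated and 133, 132 and 136 CPM treated (0.58, SE 0.07, adjusted p = 1.26e-05; 0.58 without replicate 2). Its 3 treated libraries lay close together, replicate 2 included. JUNB went from 8.68, 7.89 and 8.42 to 14.5, 22.5 and 16.3 CPM (1.09, adjusted p = 6.27e-05) and JUND from 7.68, 5.08 and 4.57 to 10.8, 15.7 and 12.2 CPM (1.16, adjusted p = 0.000612; 0.99 without replicate 2, adjusted p = 0.00652). Both encode AP-1 subunits too. EGR2, a zinc finger factor, had low levels of 0.310, 0.309 and 0.273 CPM untreated and 0.939, 0.459 and 0.923 CPM treated (1.37; 1.65 without replicate 2, adjusted p = 0.000289). FOSL1 (0.88 and 0.66), the nuclear receptor NR4A1 (0.67 and 0.58), FOSB (0.46 and 0.55) and IER5 (0.40 and 0.31) were called in both fits. Among 11 tested targets of NF-kB, 2 rose in both fits, where 1.83% of all tested genes did. They were RELB, from 1.60, 1.16 and 1.18 to 3.11, 4.08 and 2.94 CPM (1.36, adjusted p = 3.57e-05, and 1.19 without replicate 2), and NFKB2 (0.48 and 0.39). Both encode subunits of the noncanonical pathway.

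The enzymes that remove peroxide were close to their untreated levels in replicates 1 and 3. Of 24 tested peroxide and thiol enzymes, 2 rose and 2 fell with all libraries, where 5.8% and 2.26% of all tested genes did. Without replicate 2, edgeR called 0 of these enzymes (5 at an unadjusted p under 0.05). DESeq2 called 2 lower there, and limma with library weights 1 higher and 3 lower. The list median was 0.14 with all libraries and -0.03 without replicate 2, and in the 3 treated libraries it stood at -0.04, 0.46 and -0.02. GPX1, a glutathione peroxidase of high GC content, measured 196, 196 and 217 CPM untreated and 214, 440.1 and 225 CPM treated, so that only replicate 2 left the untreated range by a wide margin (0.53, adjusted p = 0.0678; 0.11 without it). CAT, which encodes catalase, was lower with all libraries (-0.29, adjusted p = 0.0069) and did not pass without replicate 2 (-0.22, adjusted p = 0.0703), as was the mitochondrial peroxiredoxin PRDX3 (-0.17; -0.12 without replicate 2). Of 25 NRF2 targets, 3 rose with all libraries (5.8% of all tested genes did) and 2 in both fits (1.83% did), with a median of 0.15 (0.03 without replicate 2). HMOX1, which encodes heme oxygenase 1 (chromosome 22, 35380361 to 35394214, plus strand), went from 33.1, 34.5 and 34.8 to 50.8, 79.7 and 53.4 CPM (0.84, SE 0.11, adjusted p = 1.24e-05; 0.61 without replicate 2, adjusted p = 1.6e-05). All 3 treated libraries were above the untreated range. The other NRF2 target called in both fits was SLC7A11, described above. SRXN1, which encodes sulfiredoxin and repairs overoxidized peroxiredoxins, had a log2 fold change of -0.01 (adjusted p = 0.921), TXNRD1, thioredoxin reductase 1, of -0.16 (adjusted p = 0.459) and NQO1, a quinone reductase, of 0.17 (adjusted p = 0.304). None of these 3 passed in either fit.

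The 17 tested heat shock genes had a median of 0.03 with 2 called higher, where 5.8% of all tested genes were. They were HSPA1B (0.30, whose reads may be split with the near-identical HSPA1A) and BAG3 (0.20). Without replicate 2, edgeR called 0 heat shock genes (3 at an unadjusted p under 0.05), DESeq2 0 and limma with library weights 1 lower. Of 5 tested metallothioneins and zinc genes, 1 rose with all libraries (5.8% of all tested genes did). It was the metal-binding MT1F (0.96, and 0.68 without replicate 2, adjusted p = 0.0767). For 33 proteasome subunits the median was 0.14 with all libraries and -0.07 without replicate 2, and in the treated libraries -0.09, 0.51 and -0.09. edgeR called 0 of them in either fit (5 and 3 at an unadjusted p under 0.05; DESeq2 called 1 lower in each, and limma with library weights 6 and 7 lower). For 77 ribosomal protein genes the median was 0.31 and -0.03, and in the treated libraries -0.06, 0.83 and 0.00. RPL13 (0.66) and RPS15 (0.71) were called only with all libraries, where 5.8% of all tested genes were higher. The medians of both lists were raised in replicate 2 alone. Of 19 base excision repair genes, 2 rose and 1 fell with all libraries, where 5.8% and 2.26% of all tested genes did. In both fits APEX2, an apurinic endonuclease, was higher (0.35 and 0.24) and PARP1, which marks DNA breaks, was lower (-0.23 and -0.15). Of all tested genes, 1.83% were higher and 0.707% lower in both fits. Of 14 endoplasmic reticulum stress genes (median 0.01), 1 rose in both fits, HERPUD1, of endoplasmic reticulum degradation (0.34 and 0.29). Of 21 cholesterol synthesis genes (median -0.06), 1 fell in both fits, LSS (-0.21 and -0.20). The shares of all tested genes are those just given. MALAT1, a nuclear long noncoding RNA, measured 37.7, 46.7 and 39.7 CPM untreated and 20.6, 67.6 and 18.3 CPM treated, lower in replicates 1 and 3 and the highest of all in replicate 2, and was called only without that library (-0.22, adjusted p = 0.673; -1.09 without it, adjusted p = 0.0061). The 29 tested replication-dependent histone genes had medians of -0.25 and -0.44, with 0 called by edgeR in either fit (5 and 3 at an unadjusted p under 0.05; DESeq2 called 1 lower in each and limma with library weights 0).

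The largest changes were read by a single rule, among 509 genes called in both fits with non-overlapping groups and enough counts (364 higher, 145 lower). Of the 12 largest rises, PHLDA3 was the only member of the stress lists. RPS2P55 had the largest value (2.86 and 2.84), and as a pseudogene of RPS2 it may share reads with its parent. In untreated vector cells it varied widely, at 20.4 CPM ± 15.7 (SD, n = 3). IER5L (1.77 and 1.42), a relative of IER5, overlaps IER5L-AS1 (2.21 and 1.74), and their reads cannot be told apart without knowing how strand was counted. The others were PRR7 (1.72), PCSK1N, an inhibitor of the prohormone convertase PCSK1 (1.66), the homeobox factor NKX2-8 (1.64), CCDC85B (1.63), the growth factor CLEC11A (1.57), GARIN5A (1.54, overlapping EMC10), MADCAM1-AS1 (1.42, overlapping TPGS1) and ENSG00000285646 (1.65, overlapping the small nuclear RNA gene RNU5E-1). All but PHLDA3 and ENSG00000285646 were also among the genes whose response differed from that of the other lines, described next. Of the 12 largest falls, KIF20A, HMMR and CENPE belonged to the mitosis list, and HMMR-AS1 (-0.99) overlaps HMMR. DEPDC1 (-0.86 and -0.64), FAM72B (-0.87 and -0.73), the mitochondrial cysteine tRNA MT-TC (-0.98 and -0.83), PDXDC2P-NPIPB14P (-0.86), GVQW3 (-0.81), THAP2 (-0.78) and the overlapping antisense pair XIST and TSIX made up the rest. FAM72B and PDXDC2P-NPIPB14P have near-identical copies among which reads may be split.

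The response of WT cells was then compared with that of each other line, each against its own untreated libraries. Against vector cells, the difference passed for 126 genes (0.56%, 124 of them higher in WT) and without replicate 2 for 45 (0.2%, all higher in WT). Against the mean of the 3 other lines it passed for 504 genes (2.24%, 493 higher in WT) and without replicate 2 for 142 (0.632%, all higher in WT). The line by line contrasts with SxxS and DR-RD were added after values had been seen. Against SxxS 337 genes passed (1.5%), and 223 without replicate 2 (0.992%). Against DR-RD edgeR called 0 genes (0%), with 3080 at an unadjusted p under 0.05, and DESeq2 called 2 and limma with library weights 51, which does not show that the WT and DR-RD responses were alike. The 128 genes that differed from the other lines in both fits were lower in untreated WT cells than in every other untreated line, all 128 of them, where 30.0% of all tested genes were. Their median untreated difference was -0.51 on the log2 scale. After H2O2, the mean of replicates 1 and 3 was above every other line for 99 (77.3%, against 26.8% of all tested genes), with a median difference of 0.30. The median response of these genes was 0.72 in WT, -0.22 in vector, 0.07 in DR-RD and -0.42 in SxxS cells. They were chosen for that difference, so these are descriptions. Because the same untreated WT libraries enter both the level and the response, a low untreated WT level and a large response are not separate measurements. Each construct was carried by 1 line, so that line and construct cannot be told apart.

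UTS2R, the urotensin receptor, had one of the smallest p-values against vector cells. It measured 9.50, 7.70 and 8.60 CPM in untreated and 12.4, 13.2 and 13.4 CPM in treated WT libraries. The untreated mean was 10.5 CPM in vector, 9.24 in DR-RD and 10.7 in SxxS cells, and the treated mean 9.02, 9.97 and 9.90 CPM. Its difference in log2 response was 0.81 against vector (adjusted p = 0.000389; 0.80 without replicate 2) and 0.67 against the 3 other lines. GARIN5A went from 2.46, 2.61 and 2.73 to 6.90, 8.06 and 7.73 CPM in WT cells, with untreated means of 6.61, 5.07 and 7.12 CPM and treated means of 4.15, 7.13 and 3.29 CPM in vector, DR-RD and SxxS cells (difference 2.21 against vector, adjusted p = 0.00403). In both genes untreated WT cells had the lowest mean of the 4 lines. CDKN2A, which encodes the p16 and ARF growth inhibitors, went from 82.6, 71.5 and 82.2 to 126, 206 and 139.6 CPM in WT cells (1.46 against vector, adjusted p = 0.00843), with untreated means of 138, 129 and 139.7 CPM in the other lines. It overlaps CDKN2B-AS1 (1.81 against the 3 other lines, adjusted p = 0.000436), and CBR1-AS1 (0.87 against vector) and ENSG00000289001 (0.90) overlap CBR1, so reads of these pairs may be shared. Of the immediate early genes, JUN (0.39, SE 0.08, adjusted p = 0.0113) and JUND (1.17, SE 0.23, adjusted p = 0.00542) differed from the 3 other lines in both fits, EGR2 only without replicate 2 (1.38, adjusted p = 0.0165), and JUNB (0.82) and IER5 (0.32) only with it. JUN had untreated means of 89.7 CPM in WT and 114, 107 and 117 CPM in vector, DR-RD and SxxS cells. JUND had 5.78 against 9.41, 8.96 and 10.3 CPM. The responses of KIF20A were -1.07, -0.95, -0.92 and -0.88 in WT, vector, DR-RD and SxxS cells, those of CDKN1A 1.08, 1.08, 0.94 and 0.83, and those of HMOX1 0.84, 0.54, 0.51 and 0.64. With an offset for GC content in each library, the differences were called for 19 genes against vector and 110 against the other lines, and UTS2R, JUN and JUND no longer passed. The count against vector also turned on single libraries: it was 10 without WT untreated replicate 2, 4 without vector untreated replicate 2 and 5 without vector H2O2 replicate 2, and 0 with only the groups compared (1544 at an unadjusted p under 0.05). JUN missed the threshold without WT untreated replicate 2 (0.37, adjusted p = 0.0601), and CDKN2A against vector without vector untreated replicate 2 (1.37, adjusted p = 0.052).

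**Figure D5:**
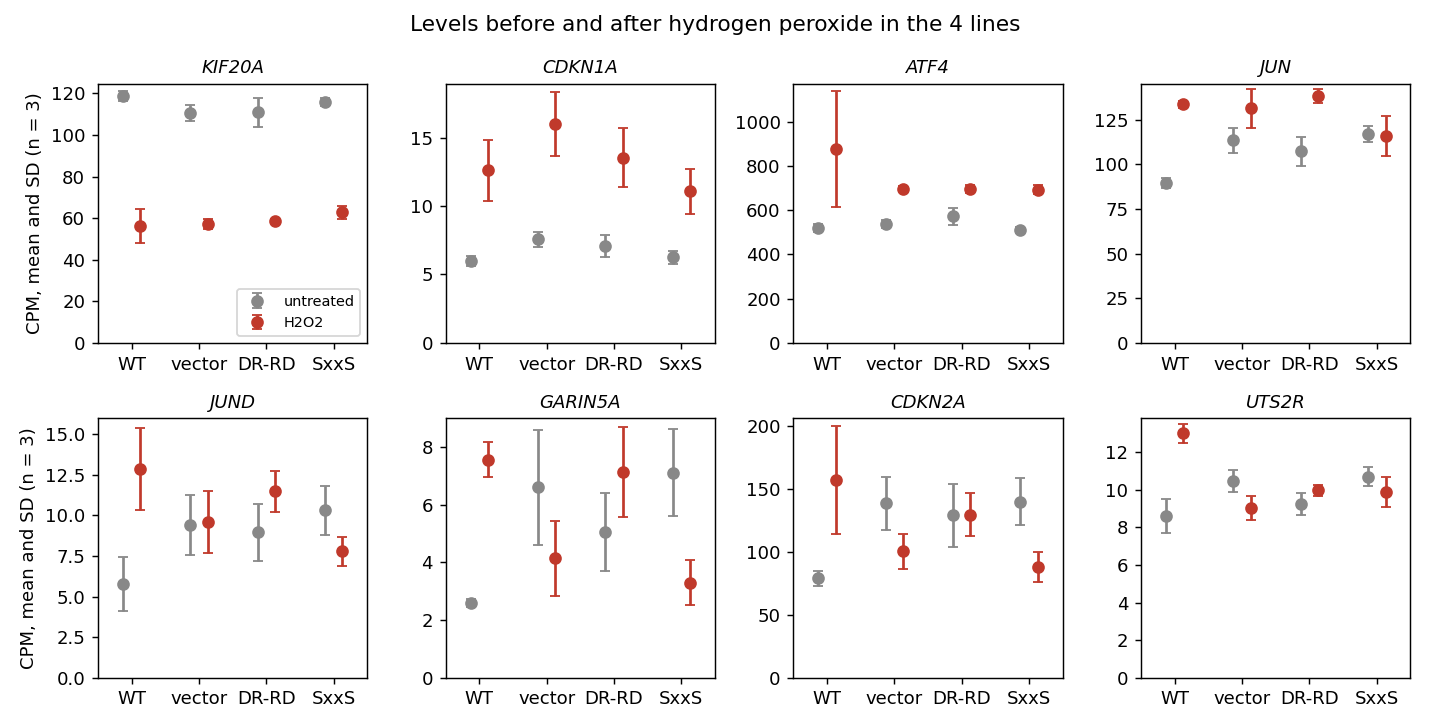
Level in CPM of 8 genes in untreated and H2O2-treated libraries of the 4 lines, each point a group mean and each bar its SD (n = 3). The treated WT mean includes H2O2 replicate 2. KIF20A is lower and CDKN1A higher after H2O2 in all 4 lines, whereas GARIN5A, CDKN2A and UTS2R have their lowest untreated mean in WT cells.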

How the data were processed

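Each library was a strand-specific transcriptome of a HEK293T line per the labels, and depth is given in the report. The authors aligned 100-bp paired reads to GRCh38 with QuasR and deposited raw counts per gene for 36 libraries; the annotation release, the strand setting and how mates were counted were not given in the sources used here. Of 61587 identifiers, 61369 were found in GENCODE 44, which gave GRCh38 coordinates, GC content and overlaps, and 12801 of the tested genes (56.93%) overlap exons of another gene.

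As in the study's filter, genes with at least 10 counts over the 3 untreated vector libraries were kept (22486). edgeR 4.0.16 (R 4.3.3) fitted 1 mean for each of 12 groups to the counts with TMM factors and a robust quasi-likelihood test, and p-values were adjusted by Benjamini and Hochberg's method across the tested genes. Every adjusted p in the text comes from this test unless another tool is named. Fold changes are log2 and positive when higher after H2O2, and CPM values use TMM-scaled library sizes. DESeq2 1.42.0, limma 3.58.1 with library weights, other filters and scalings, a GC offset and each library left out were the alternatives. The test was checked on simulated data for the WT response: of 200 genes changed by 1 log2 unit among 21632, 182 were recovered, with 5 false calls. For the difference from vector, 144 were recovered, with 5 false calls. In the simulation all libraries shared 1 baseline, and none was shifted by GC content or length as WT H2O2 replicate 2 was. These numbers therefore do not give the share of false calls in the real libraries.

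Members and gene lists were chosen with earlier results of these data known. The genes named were TXNL1, list members, the 12 largest rises and falls called in both fits with non-overlapping groups and a mean of at least 100 counts in a group, the 5 smallest p-values of each difference between lines, and the 6 genes at which WT H2O2 replicate 2 read highest and lowest.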

Additional observations from a re-analysis of the deposited data

Results flagged for a closer look

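Genes are listed here because their response to H2O2 differed between WT cells and other lines in edgeR's quasi-likelihood test of the difference itself, both with and without WT H2O2 replicate 2. All differences are log2 and positive, so that the response was the higher one in WT cells.

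Against vector cells the differences were 2.21 for GARIN5A, 0.81 for UTS2R, 0.87 for CBR1-AS1, 0.9 for ENSG00000289001, 1.46 for CDKN2A and 1.83 for CDKN2B-AS1. Against the mean of the 3 other lines they were 1.97 for GARIN5A, 0.67 for UTS2R, 0.88 for CBR1-AS1, 0.91 for ENSG00000289001, 1.37 for CDKN2A and 1.81 for CDKN2B-AS1. For CDKN2A and CDKN2B-AS1, and for the CBR1 antisense genes, overlapping exons mean that 1 change may be counted more than once.

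Against the 3 other lines, the AP-1 genes differed by 0.39 for JUN and 1.17 for JUND. With the GC offset, JUN, JUND and UTS2R no longer passed, and JUN also missed the threshold without WT untreated replicate 2. Among the largest rises in WT cells, the differences were 3.92 for RPS2P55, 2.57 for IER5L-AS1, 2.07 for IER5L, 1.63 for PRR7, 2.23 for PCSK1N, 1.79 for NKX2-8, 1.98 for CCDC85B, 1.91 for CLEC11A and 2 for MADCAM1-AS1. The adjusted p-values of these 9 genes lay between 0.0024 and 0.00624 with all libraries and between 0.0163 and 0.0401 without replicate 2. GC content of the 37 genes with a higher response in WT than in vector cells in both fits had a median of 63.6%, against 48.3% for all tested genes, and its part in these differences was tested only through the GC offset given in the report.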

How the results depend on the processing

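The response of WT cells called 1813 genes with all libraries and between 682 and 3819 with 1 library left out. It called 1070 with no filter beyond 1 count, 1060 with the replicate number as a block, 1123 with the GC offset and 1 with only the groups compared. Leaving out WT H2O2 replicate 2 and changing the method, chosen after seeing the data, gave 1041 with DESeq2 and 636 with the GC offset. Without replicate 2 and WT arsenite replicate 1 it called 1175 higher and 845 lower, and limma with library weights 1604 and 1111. The mitosis list had between 23 and 41 genes lower under every alternative except only the groups compared, which called 0.

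The difference from vector cells called 126 genes, between 4 and 396 with 1 library left out. It called 252 without both outlying WT libraries, 258 with DESeq2, 463 with limma with library weights, 79 with DESeq2's size factors, 70 with no filter, 48 with the replicate block, 19 with the GC offset and 0 with only the groups compared. Without replicate 2 it called 424 with limma and 14 with the GC offset. The difference from the 3 other lines called 504, between 142 and 1706 with 1 library left out. It called 855 with DESeq2, 765 with limma, 319 with no filter, 236 with the replicate block and 110 with the GC offset, and without replicate 2, 220 with DESeq2 and 55 with the GC offset. The cause of each change was not tested.

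Same-numbered treated and untreated WT libraries correlated at 0.40, 0.03 and -0.30. Against untreated replicate 1, however, H2O2 replicates 1, 2 and 3 gave 0.40, -0.38 and 0.32. Replicates 1 and 3 were thus near each other and opposite to replicate 2, so these correlations cannot decide whether replicate numbers pair the samples. Medians of the peroxide enzyme, proteasome, ribosomal, respiratory chain, base excision repair and nuclear RNA lists changed sign under the 7 of 20 alternatives in which replicate 2 was left out or given little weight, and that of the heat shock list under 6 of the 20, total-count scaling among them. Medians of the metallothionein, endoplasmic reticulum stress, iron, mitochondrial mRNA and fibroblast lists changed sign under 1 or 2. MALAT1 ranged from -1.13 to 0.10. The effect of depth was not tested, and genes below 1 CPM, such as EGR2 in untreated cells, rest on few counts. Overlapping genes and near-identical copies remain uncertain.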

Other observations

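Among genes with enough counts, WT H2O2 replicate 2 read lowest relative to replicates 1 and 3 at COL1A2, a fibrillar collagen gene (0.801, 0.0102 and 2.08 CPM in replicates 1, 2 and 3). COL1A2 also varied widely between the untreated WT libraries, at 0.0344, 0.808 and 2.56 CPM. The treated library also read low at ANKRD36BP1 (6.24, 0.306 and 5.46 CPM), a pseudogene that overlaps SFT2D2. The other 4 of the 6 lowest were the long noncoding RNA genes ENSG00000287959 (2.37, 0.0816 and 2.42 CPM), ENSG00000259375 (2.00, 0.133 and 2.38 CPM), ENSG00000227227 (1.19, 0.0714 and 1.46 CPM) and ENSG00000242588 (2.14, 0.153 and 2.23 CPM), all of which overlap other genes. It read highest at the pseudogene MTX1P1 (3.08, 22.4 and 6.44 CPM), at ENSG00000260257 (2.37, 11.1 and 2.95 CPM), at the overlapping ENSG00000263859 (2.57, 9.98 and 2.39 CPM) and ENSG00000263731 (6.56, 20.4 and 5.51 CPM), at MALAT1, given above, and at the pseudogene RPL24P2 (1.80, 4.83 and 1.29 CPM). Of these 12 genes, MALAT1 alone passed edgeR's test of the H2O2 response, and only without that library.

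The 35 nuclear-encoded respiratory chain genes had a median log2 fold change of 0.15 with all libraries and -0.06 without replicate 2. COX5B, a subunit of cytochrome c oxidase, was called higher only with all libraries (0.77, and 0.36 without replicate 2), where 5.8% of all tested genes were higher. The 13 mitochondrially encoded mRNAs had medians of 0.07 and 0.16, and edgeR called 0 of them in either fit (1 at an unadjusted p under 0.05 in each; DESeq2 called 1 higher in each, and limma with library weights 0 with all libraries and 1 higher without replicate 2).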
